A study of Mus musculus with 40 samples.

Results

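Foxp3 and the 5 members of the Ikaros zinc finger family, Ikzf1 (Ikaros), Ikzf2 (Helios), Ikzf3 (Aiolos), Ikzf4 (Eos) and Ikzf5 (Pegasus), were followed across mouse CD4 T cells on 2 types of Affymetrix array. These 6 genes were chosen by name, and each was represented by the probe set that listed it alone, by its current or an older symbol, and had the highest mean signal over all arrays of its platform. All 6 were found on both platforms, among 18193 genes measured on the sorted T cell arrays and 17097 on the ligand arrays. Foxp3 lies on chromosome X, Ikzf1 and Ikzf3 on chromosome 11, Ikzf2 on chromosome 1, Ikzf4 on chromosome 10 and Ikzf5 on chromosome 7, as listed by RefSeq for GRCm38.p6.

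The series holds 40 arrays of cells from C57Bl/6 mice, and its title links regulatory T cells (Treg) to neuropilin-1 (Nrp1), a surface receptor, and its ligand semaphorin-4a. The 8 sorted T cell arrays come from mice with the Foxp3GFP reporter, whose cells fluoresce where Foxp3 is expressed. They hold 3 arrays of activated Treg (CD4+ CD45RBlow GFP+, stimulated through CD3 and CD28), 3 of resting Treg (the same gate, unstimulated) and 2 of resting conventional T cells (Tconv; CD4+ CD45RBhi GFP-, unstimulated), all cultured for 48 h. GFP and CD45RB gates therefore changed together between Treg and Tconv, and their parts cannot be told apart. Bone marrow is entered as their source.

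The 32 ligand arrays come from CD4+ CD45RBlo YFP+ Treg of spleen and lymph nodes, all cultured with antibodies to CD3 (1 µg/mL, immobilised) and CD28 (2 µg/mL) and with IL-2 (100 U/mL). They fall into 16 pairs of 1 array with plate-bound Sema4a-Ig, a fusion protein of the ligand, and 1 with control IgG1, each at 10 µg/mL. Of these, 8 pairs are from mice carrying Nrp fl/fl with Foxp3-YFP-iCre (KO), in which a Foxp3-driven Cre recombinase deletes the floxed Nrp1 gene, and 8 pairs are from Foxp3-YFPiCre mice (WT), so the Cre transgene was present in both genotypes. In WT replicate 2 the Sema4a-Ig array is titled WT but has the floxed line as its genotype, and it was kept with WT. Whether replicates are separate mice or cultures is not stated, so the p-values reflect spread among arrays that could be technical.

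Foxp3 is a forkhead transcription factor that defines the Treg lineage, and loss of it in mice causes fatal autoimmunity. Ikaros family proteins bind DNA through zinc fingers at one end, pair with each other through zinc fingers at the other, and recruit chromatin remodelling and corepressor complexes in lymphocytes. Helios and Eos are known as partners of Foxp3 in Treg, Ikaros and Aiolos are known for their roles in lymphocyte development and are degraded in human cells under lenalidomide-type drugs, and Pegasus is the least studied member.

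RefSeq promoter windows were at hand for 3 of the 6 members. For Foxp3 and Ikzf1, 1 window each is shown, because the signals of these 2 genes differed in opposite directions between activated Treg and Tconv. Each gene has a further window, and those shown are the ones that differ most in base composition. Each holds the 250 bases before an annotated start on the plus strand of GRCm38.p6, chrX:7579426-7579675 for Foxp3 and chr11:11685675-11685924 for Ikzf1, with any match to the 3 motifs described after them in capitals.
Foxp3: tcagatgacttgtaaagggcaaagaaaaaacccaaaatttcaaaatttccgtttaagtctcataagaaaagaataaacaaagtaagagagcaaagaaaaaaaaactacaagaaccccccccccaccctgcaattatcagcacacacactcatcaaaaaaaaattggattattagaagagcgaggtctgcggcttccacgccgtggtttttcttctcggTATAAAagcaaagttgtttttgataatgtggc
Ikzf1: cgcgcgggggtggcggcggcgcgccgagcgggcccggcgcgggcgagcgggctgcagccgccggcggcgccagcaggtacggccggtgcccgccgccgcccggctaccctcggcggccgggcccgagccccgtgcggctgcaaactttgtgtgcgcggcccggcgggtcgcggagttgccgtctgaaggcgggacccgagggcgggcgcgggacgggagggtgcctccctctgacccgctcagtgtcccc
The Foxp3 window shown had 37.6% G and C and the Ikzf1 window shown 82%, against a median of 52.4% over 32851 promoter windows. The further windows were close to each other, with 46.0% for Foxp3 and 47.6% for Ikzf1, so the contrast depends on the start chosen. The capitals in the Foxp3 window mark 1 match to TATAAA, the core of a TATA box, which was found on either strand in 12.4% of all windows. The further Foxp3 window had no such match. The forkhead motif TGTTTAC (or its reverse GTAAACA), present in 3.17% of all windows, was not in any window of Foxp3, Ikzf1 or Ikzf5. The Ikaros core motif GGGAA (or TTCCC), present in 56.2% of all windows, was absent from both Foxp3 windows and from the Ikzf1 window shown, occurred 2 times in a further Ikzf1 window and 1 time in the Ikzf5 window. TATAAA was added after the Foxp3 sequence had been seen, no matches overlap in these windows, and a match is not a binding site.

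The cells were first checked against their labels. Of 8 measured Treg marker genes other than the members, 7 were higher in resting Treg than in Tconv (87.5%, against 3.87% of all genes). The list's mean log2 signal per array was 10.94 to 11.40 in activated Treg, 10.36 to 10.62 in resting Treg and 6.54 to 6.66 in Tconv. Of 9 T cell markers none was called between resting Treg and Tconv in limma's test, with 2 above 0 and a median of -0.49. In activated Treg minus Tconv, Lat (-2.02) and Thy1 (-1.17) were called lower (22.2%, against 3.77% of all genes). Markers of other cells were not equal between the groups. Of 9 measured B cell markers, 8 were above 0 in resting Treg minus Tconv, with a median of 0.77 against 0.0073 over all genes. Cd79b (2.85), Ighm (0.77) and Cd79a (0.73) were called higher (33.3%, against 3.87% of all genes). Ighm was bright in every group, with means of 13.6 in activated Treg, 13.7 in resting Treg and 12.9 in Tconv. Cd79a stayed within background in all groups, at 5.14 to 5.19 in resting Treg. The list's mean log2 signal was 5.90 to 6.76 in activated Treg, 6.03 to 6.73 in resting Treg and 5.40 to 5.46 in Tconv. In resting Treg Cd22 reached 7.38 and Fcrla 6.20, while Pax5 (4.18 to 4.82) and Ebf1 (4.03 to 4.62) stayed within background. Of 9 genes marking dendritic cells or antigen presentation by MHC class II none was called, and 8 were above 0 in resting Treg minus Tconv, with a median of 1.39 against 0.0073 over all genes. H2-Aa averaged 9.01 in activated Treg, 9.07 in resting Treg and 6.44 in Tconv, and Cd74 averaged 7.86, 7.85 and 5.76 in the same order. Batf3 averaged 5.24, 6.18 and 4.74 and Flt3 6.02, 5.86 and 5.77 in that order, while Itgax, Ciita and Siglech stayed within background. Over that list the mean signals were 5.80 to 6.51 in activated Treg, 5.72 to 7.01 in resting Treg and 5.17 to 5.19 in Tconv. Of 9 CD8 and NK cell markers Klrd1 was lower in both Treg groups than in Tconv and Prf1 was lower in activated Treg (-1.65), with -1.35 and no call in resting Treg (adjusted p = 0.128). Of the 9, 2 were above 0 in resting Treg minus Tconv (median -0.21) and 4 in activated Treg minus Tconv (median -0.018). Nkg7 went the other way, with means of 5.63 in activated Treg, 5.06 in resting Treg and 4.48 in Tconv. In Tconv, Cd8a, Ncr1, Klrk1 and Klra8 stayed within background. Klrd1 had means of 5.34 in activated Treg, 7.30 in resting Treg and 12.03 in Tconv. The list's mean signals were 5.02 to 5.25, 5.13 to 5.31 and 5.83 to 6.02 in these groups.

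Myeloid markers set 1 array apart. The mean signal of 15 such genes was 7.18 in activated Treg replicate 1 and 5.74 and 5.50 in the other 2 activated arrays, 5.25 to 5.94 in resting Treg and 5.14 to 5.21 in Tconv. On that array S100a8 was 11.29 and S100a9 10.32, against at most 6.22 and 5.85 on the other 7 arrays, while Itgam was at background (4.25). Of the 15 only Lyz1 was called, higher in activated Treg than in Tconv (3.33). RNA quality also differed: the Actb 3' minus 5' log2 signal was 5.87, 6.17 and 2.31 in activated Treg, 5.90, 2.50 and 2.67 in resting Treg and 1.24 and 1.54 in Tconv, where a larger value means more loss of the 5' end. Except where a value is given below, the part of these differences in the results was not tested.

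Signal level set what each platform could show. On the sorted T cell arrays, 71 olfactory and vomeronasal receptor genes, which T cells are not known to use, had a median log2 signal of 4.17 and a 95th percentile of 5.32, and the 3 TrpnX control probe sets lay between 3.36 and 4.02. All members exceeded that percentile on every array, with the exception of Foxp3 in Tconv. On the ligand arrays, 23 nonspecific control probe sets had a median of 2.29 and a highest value of 3.95, and 78 olfactory and vomeronasal receptor genes had a 95th percentile of 4.44. There the Ikaros family means were 9.49 for Ikzf1, 11.11 for Ikzf2, 6.70 for Ikzf3, 8.82 for Ikzf4 and 7.11 for Ikzf5, all above background on each of the 32 arrays. Foxp3 averaged 3.55, above only 37.3% of all probe sets, and lay under the array's 95th percentile of receptor genes on 32 of 32 arrays. All 16 pairs share one mean at each probe set in the deposited values, so these array counts are not independent checks of level.

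**Figure D1:**
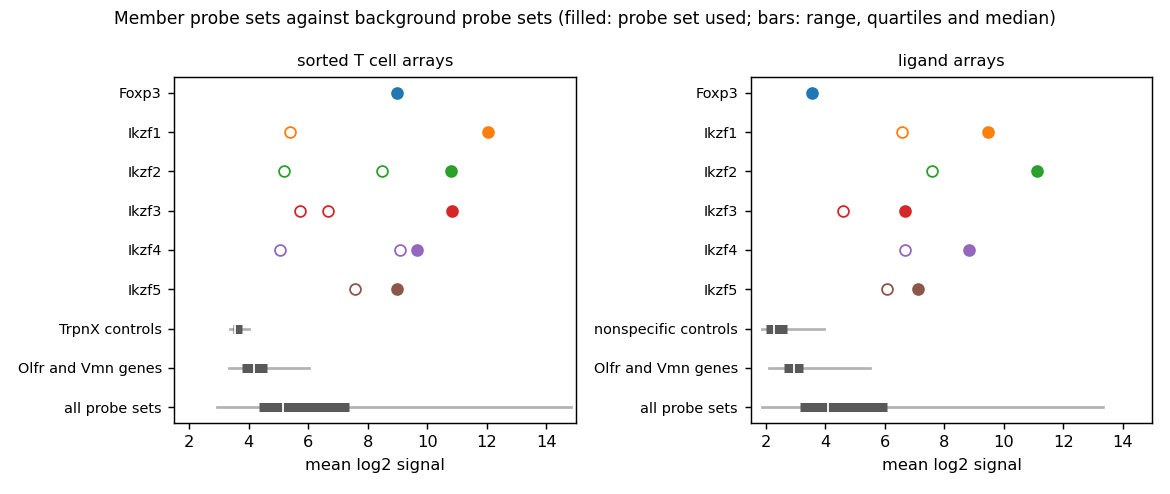
Mean log2 signal of every member probe set (circles, filled for the one used) on the sorted T cell arrays and the ligand arrays, with the range, quartiles and median of control, receptor and all probe sets (bars). Foxp3 averaged 8.97 on the sorted T cell arrays and 3.55, within the background range, on the ligand arrays.

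The Foxp3 probe set of the same number was bright in the Treg of the other experiment, at 10.33 to 10.91. The other Treg markers were measured in the ligand experiment, with Ctla4 at a mean of 11.10 in KO with IgG1 and 11.04 in WT with IgG1, and Il2ra at 10.30 and 10.21 in the same groups. On the ligand platform 2 more probe sets, with means of 6.00 and 5.72, list Foxp3 together with its neighbour Ccdc22 and were not used. Their counterparts on the sorted T cell platform list Ccdc22 alone, lay between 7.26 and 8.54 on all 8 arrays, and passed the test in none of the 3 comparisons. The Foxp3 RNA level of the ligand experiment is therefore not reported, and why its probe set was dim there was not tested.

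Resting Treg were compared with resting Tconv to ask which members mark the lineage without stimulation. Foxp3, Ikzf2, Ikzf4 and Ikzf3 were higher in resting Treg, by 6.44, 6.22, 3.68 and 1.72 on the log2 scale, and none was called lower. These are 4 of 6 members, against 3.87% of all genes called higher and 1.67% called lower in limma's test at an adjusted p under 0.05. The median difference was 2.70 over the members and 0.0073 over all genes. Both the count and the members' median include Foxp3, whose call was set in advance by the reporter used in the sort.

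Foxp3 had log2 signals of 10.38, 10.33 and 10.60 in resting Treg, against 3.95 and 4.05 in Tconv. The groups lay far apart, and in Tconv the signal was not well above background. Its difference was 6.44 ± 0.16 (SE; adjusted p = 1.57e-06), and resting Treg were at least 32.6-fold higher when each Tconv array was set at its 95th percentile of receptor genes. The sort used a Foxp3 reporter, so this difference describes the gate and is no finding about these cells.

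Ikzf2, which encodes Helios, a marker of many Treg that arise in the thymus, was 12.48, 12.20 and 12.08 in resting Treg, against 5.91 and 6.16 in Tconv. All 3 resting Treg arrays were above both Tconv arrays, which lay just over background. The difference was 6.22 ± 0.19 (adjusted p = 2.39e-06), a 74.4-fold higher signal. Ikzf2 was not used in the sort. A second Ikzf2 probe set differed by 5.52 and the third, of low signal, by 1.93, and both were called.

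Ikzf4, which encodes Eos, a corepressor partner of Foxp3, was 10.53, 10.85 and 10.77 in resting Treg, against 7.09 and 6.99 in Tconv. The groups did not overlap, and Tconv were themselves above background. The difference was 3.68 ± 0.16 (adjusted p = 1.39e-05). Its second probe set differed by 4.01 and was called, while the third, near background, differed by 0.18 and was not.

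Ikzf3, which encodes Aiolos, was 11.21, 10.12 and 10.61 in resting Treg, against 8.95 and 8.89 in Tconv. All resting Treg arrays were higher, with more spread among them (SD 0.55) than for any other member in this group. The difference was 1.72 ± 0.32 (adjusted p = 0.0190), and the adjusted p was 0.171 without Tconv replicate 1 and 0.159 without Tconv replicate 2. The 2 dimmer Ikzf3 probe sets differed by 0.56 and 0.27 and were not called.

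Ikzf1, which encodes Ikaros, the founding member, ran the other way: it was 11.75, 12.20 and 11.56 in resting Treg, against 12.90 and 12.87 in Tconv. The groups did not overlap, as was the case for 42% of all genes. The difference of -1.05 ± 0.27 missed the threshold (adjusted p = 0.0677) and passed it with trend and robust moderation (0.0375), after renewed quantile normalization (0.0374) and with array weights (0.00882). Ikzf5 was 8.94, 9.56 and 8.55 in resting Treg, against 9.58 and 9.48 in Tconv, with overlapping groups and a difference of -0.52 ± 0.28 (adjusted p = 0.393).

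**Figure D2:**
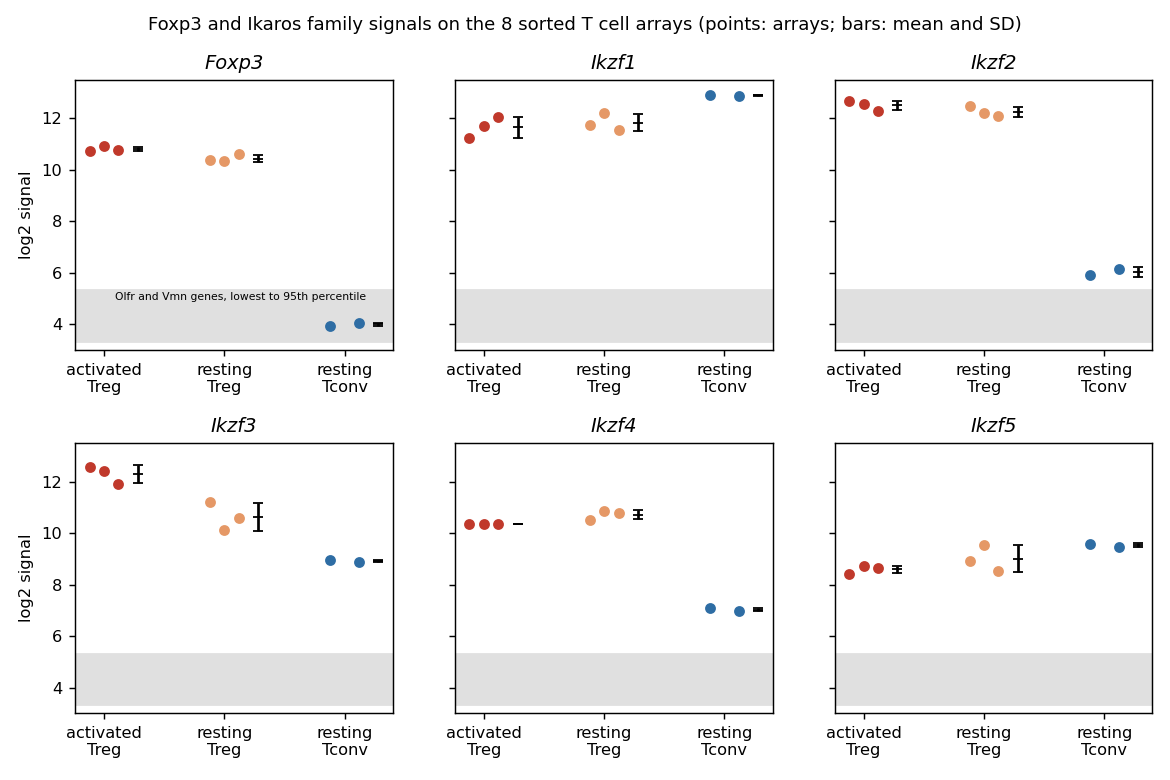
Log2 signal of the 6 members on each sorted T cell array (points), with mean and SD of activated Treg, resting Treg and Tconv and the background range of receptor genes in grey. Ikzf2 was higher in resting Treg than in Tconv by 6.22 log2 units and Foxp3 by at least 5.03, since its Tconv arrays lay in the background range, Ikzf3 formed 3 steps, and Ikzf1 was highest in Tconv.

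In bulk samples such as these, fewer cells of a type and less RNA per cell cannot be told apart.

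Activated Treg were compared with resting Treg to ask which members respond to CD3 and CD28 stimulation. Ikzf3 was the 1 member of 6 called, higher by 1.67 on the log2 scale, against 0.522% of all genes called higher and 0.22% called lower. The members' median difference was 0.0375, with 0.0035 over all genes.

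Ikzf3 was 12.59, 12.42 and 11.92 in activated Treg, against 11.21, 10.12 and 10.61 in resting Treg. Every activated array was above every resting array. The difference of 1.67 ± 0.29, a 3.18-fold higher signal, only just passed (adjusted p = 0.0495). A second Ikzf3 probe set, at 7.46, 7.91 and 7.88 in activated Treg and 6.71, 5.80 and 6.11 in resting Treg, differed by 1.54, and the third by 0.015. Among arrays of high Actb 3' minus 5' signal the difference of the first probe set was 1.30 (2 activated, 1 resting) and among those of low signal 1.56 (1 activated, 2 resting), so its direction held within both classes.

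The Ikzf3 call rested on single arrays. Without activated Treg replicate 1, the array with the high myeloid markers, the difference was 1.53 and not called (adjusted p = 0.151). Without resting Treg replicate 1 the difference was 1.95 (adjusted p = 0.0290). When any of the other 5 Treg arrays was left out, the adjusted p was between 0.0632 and 0.161, with differences of 1.40 to 1.86.

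Foxp3 was 10.74, 10.91 and 10.77 in activated Treg, against 10.38, 10.33 and 10.60 in resting Treg. All activated arrays were higher, but the difference of 0.37 ± 0.14 did not pass (adjusted p = 0.347). Groups without overlap were found for 13% of all genes. Ikzf4 was 10.38, 10.35 and 10.36 in activated Treg, against 10.53, 10.85 and 10.77 in resting Treg, below every resting array, with a difference of -0.35 ± 0.14 that did not pass either (adjusted p = 0.376). Its second probe set differed by 0.031.

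Ikzf2, at 12.66, 12.56 and 12.30 in activated Treg against the resting values above, overlapped between the groups (0.25 ± 0.17, adjusted p = 0.663). Ikzf1, at 11.23, 11.70 and 12.04 in activated Treg, overlapped too (-0.18 ± 0.24, adjusted p = 0.854), and Ikzf5, at 8.43, 8.72 and 8.64, overlapped with the lowest resting array (-0.42 ± 0.25, adjusted p = 0.606). The 95% intervals ran from -0.14 to 0.65 for Ikzf2, -0.74 to 0.38 for Ikzf1 and -0.99 to 0.15 for Ikzf5, so changes of these sizes are not excluded by 3 arrays a group.

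Activated Treg were also set against resting Tconv, a comparison in which lineage and stimulation change together and cannot be told apart. It shares arrays with both comparisons above. Of the 6 members 4 were higher and 1 was lower in activated Treg, against 5.93% and 3.77% of all genes. The 4 again include Foxp3, on whose reporter the cells were sorted. The differences were 6.81 ± 0.16 for Foxp3 (at least 42.2-fold against background in Tconv), 6.47 ± 0.19 for Ikzf2, 3.39 ± 0.32 for Ikzf3 and 3.33 ± 0.16 for Ikzf4, with adjusted p = 0.000514 for Ikzf3, the highest of the 4. Ikzf1 was lower by 1.23 (difference -1.23 ± 0.27, adjusted p = 0.0263), and Ikzf5 at -0.94 ± 0.28 did not pass (adjusted p = 0.0759).

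The Ikzf1 difference depended on the arrays used. Both Tconv arrays had low Actb 3' minus 5' signals, and among activated Treg the array with the low signal had the highest Ikzf1 value, 12.04. Among resting Treg the highest Ikzf1 value, 12.20, and the lowest, 11.56, were both on arrays with the low signal, around 11.75 on the other. Without activated Treg replicate 1 the adjusted p was 0.0589, without replicate 2 0.0749, and without Tconv replicate 1 or 2 it was 0.199 or 0.166. With the 2 Actb classes as a block the difference was -0.996 (adjusted p = 0.0783), and on the low class alone it was -0.85 (adjusted p = 0.217, 1 activated array). The second, dimmer Ikzf1 probe set differed by -0.72 and was not called.

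**Figure D3:**
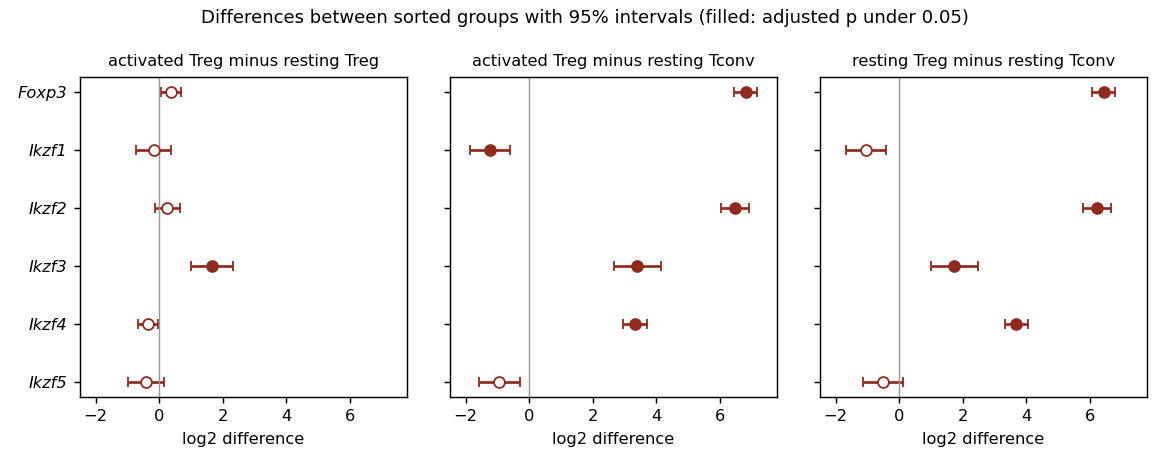
Log2 differences of the 6 members with 95% intervals from limma in 3 comparisons of the sorted groups, filled where the adjusted p was under 0.05. Activated minus resting Treg shows 1 filled point, Ikzf3 at 1.67, and both comparisons with Tconv show Foxp3, Ikzf2, Ikzf3 and Ikzf4 to the right of 0.

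By level, Foxp3, Ikzf2 and Ikzf4 thus had 2 steps over the 3 groups, both kinds of Treg over Tconv, with a difference between the Treg groups that did not pass the test. By its brightest probe set Ikzf3 had 3 steps, activated Treg over resting Treg over Tconv, of which the upper only just passed. Its 2 dimmer probe sets differed by 1.54 and 0.015 in the upper step and by 0.56 and 0.27 in the lower. Ikzf1 and Ikzf5 had their highest mean in Tconv and their lowest in activated Treg, with only the outer Ikzf1 groups past the threshold.

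**Figure D4:**
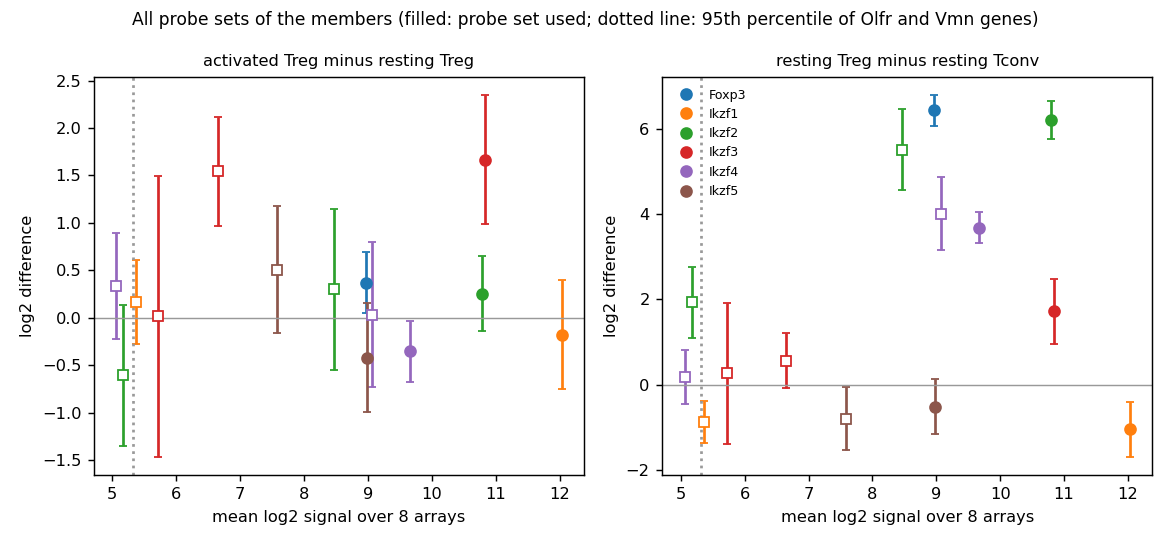
Log2 difference with 95% interval of each of the 14 member probe sets against its mean log2 signal on the sorted T cell arrays, for activated minus resting Treg and resting Treg minus Tconv. Probe sets near the dotted background line gave smaller differences than the brighter probe sets of Ikzf2, Ikzf3 and Ikzf4 in resting Treg against Tconv.

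Likeness of pattern was measured as the root mean square difference of centred log2 signals over the 8 sorted arrays, as a description only. Foxp3 was most like Ctla4 (0.19), then Ikzf2 (0.23) and Niban1 (0.28), and Ikzf2 was most like the same Ctla4 (0.17), Foxp3 and Niban1 (0.32). Ctla4 encodes an inhibitory receptor of Treg. Ikzf4 was nearest to Gbp3 (0.20), Itgb1 (0.20) and Gpm6b (0.21), and Ikzf3 to Litaf (0.28), Rfc4 (0.30) and Cks2 (0.31), the last 2 being replication and cell division genes. Ikzf1 was nearest to Irf7 (0.13), Atp13a3 (0.14) and Zadh2 (0.14), and Ikzf5 to Col11a2 (0.08), AI837181 (0.12) and Nol8 (0.13). Among the members themselves, Ikzf1 and Ikzf5 (0.27) and Foxp3 and Ikzf2 (0.23) were the nearest pairs.

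Genes known to act with the members were described by lists. Over 14 measured genes known to be induced by Foxp3 in Treg, the median difference between resting Treg and Tconv was 2.80. Of these, 10 were higher in resting Treg (71.4%, against 3.87% of all genes) and none was lower. The higher genes include Ctla4 (6.20), the integrin gene Itgae (5.71), the IL-2 receptor chain gene Il2ra (5.49) and Fgl2 (3.88), which encodes a secreted suppressive protein. Ctla4, Itgae, Il2ra, Gpr83, Tnfrsf18 and Capg are on this list and also among the Treg markers above. The results of both lists are therefore not separate. Against Tconv, 13 of 14 were higher in activated Treg (92.9%, against 5.93% of all genes). Against resting Treg only Il10 (3.34), an anti-inflammatory cytokine gene, was called (7.14%, against 0.522% of all genes). Of 14 measured genes known to be repressed by Foxp3, 8 were lower in resting Treg than in Tconv (57.1%, against 1.67% of all genes). Among them were Igfbp4 (-5.11), the phosphodiesterase gene Pde3b (-4.39) and Dapl1 (-4.13). From the same list Id3, an inhibitor of E proteins, was higher (2.74). In activated Treg 7 of the 14 were lower than in Tconv (50%, against 3.77% of all genes), and none was called against resting Treg.

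Of 25 factors and enzymes known to act at the Foxp3 locus, 2 were higher in resting Treg than in Tconv (8%, against 3.87% of all genes). They were Stat5a (2.40), which carries IL-2 signals, and Foxo1 (0.82), and a share from so few genes is not read as enrichment. Activated Treg had more RNA than resting Treg for 3 of the 25 (12%, against 0.522% of all genes). These were Uhrf1 (2.87), which helps to maintain DNA methylation, and the orphan nuclear receptor genes Nr4a3 (2.59) and Nr4a1 (2.49). Against Tconv, 5 of the 25 were higher in activated Treg (20%, against 5.93% of all genes). The largest differences were those of Nr4a3 (3.50), Uhrf1 (3.47), Nr4a1 (3.37) and Stat5a (2.57). Of 18 genes whose proteins form the corepressor and remodelling complexes of the Ikaros family, only Chd4, a NuRD remodeller gene, was called. It was lower in resting Treg than in Tconv by 0.95 (difference -0.95 ± 0.15), and 1 gene is 5.56% of the list, against 1.67% of all genes. None of the paralogues Foxp1, Foxp2 and Foxp4 was called in any of the sorted comparisons.

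In the ligand experiment the deposited values allow only 1 kind of comparison. For every probe set, all 16 pairs share one mean, so levels of KO and WT cannot be compared, and only the Sema4a-Ig minus IgG1 difference of each pair carries information. Ikzf2 was the 1 member of 6 called: it was higher with Sema4a-Ig in WT Treg by 0.29 on the log2 scale. In WT 2.91% of all genes were called higher and 2.88% lower. In KO no member and no gene was called (0%), with 1787 of 17097 genes at an unadjusted limma p under 0.05, none of them a member.

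Ikzf2 pair differences in KO were 0.23, 0.10, 0.10, -0.08, 0.07, 0.013, 0.04 and 0.07, against 0.78, 0.07, 0.47, 0.05, 0.04, 0.33, 0.35 and 0.18 in WT. All 8 WT pairs and 7 of 8 KO pairs were above 0, and the genotypes overlapped. The mean was 0.07 ± 0.08 (SE; adjusted p = 0.783) in KO and 0.29 ± 0.08 (adjusted p = 0.0352), a 1.22-fold higher signal, in WT. The difference between the genotypes, KO minus WT, was -0.22 ± 0.11 (unadjusted p = 0.0627, adjusted p = 0.843), so a dependence on genotype was not shown.

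The Ikzf2 probe sets did not move alike. The second listed probe set, with a mean signal of 7.59, differed by -0.17 in KO and -0.19 in WT (adjusted p = 0.701 and 0.454). A probe set with no gene listed on this platform, whose number the sorted T cell platform lists with Ikzf2, had a mean of 9.90 and differed by 0.15 in KO and 0.51 in WT (adjusted p = 0.812 and 0.0794), with 7 of 8 pairs above 0 in each genotype. This check was added after the data had been seen.

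The WT call for Ikzf2 also rested on single pairs. It was lost without WT replicate 1 (adjusted p = 0.0945), 3 (0.119), 6 (0.0617) or 7 (0.0889), with differences of 0.22 to 0.32 over all 8 omissions, and with trend and robust moderation (0.0538). Without replicate 2, the pair with the conflicting genotype label, it held (0.0362). Of 15 myeloid markers, 3 were higher with Sema4a-Ig in WT (20%, against 2.91% of all genes), Lyz2 (0.81), Tyrobp (0.39) and Ctss (0.37). Averaged over the list, KO arrays lay at log2 signals of 4.71 to 4.99 under Sema4a-Ig and 4.64 to 4.91 under IgG1, and WT arrays at 4.68 to 5.07 under Sema4a-Ig and 4.55 to 4.94 under IgG1. Its mean pair difference ran from -0.20 to 0.35 in KO and from -0.26 to 0.52 in WT. With that difference as a covariate Ikzf2 was higher by 0.25 in WT and not called (adjusted p = 0.368). Among 9 B cell markers Cd79b (0.35) was higher in WT, as was Nrp1 (0.37) among 7 Treg markers, and Nrp1 differed by 0.34 in KO without passing the test (adjusted p = 0.378; KO minus WT -0.032, adjusted p = 0.993). Of 10 CD8 and NK cell markers Nkg7 (-0.52) was lower in WT, with 1 of 10 above 0 and a median of -0.10. The list's mean pair difference ran from -0.74 to 0.13 in KO and from -0.47 to 0.10 in WT.

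The other Ikaros genes were not called in either genotype. Ikzf3 pair differences ran from -0.39 to 0.23 with a median of -0.024 in KO and from -0.72 to 0.17 with a median of -0.12 in WT, with means of -0.04 ± 0.10 and -0.19 ± 0.10 in the same order (adjusted p = 0.915 and 0.270). They fell on both sides of 0 in both genotypes. The brighter probe set whose number the sorted T cell platform lists with Ikzf3, unlisted here, had a mean of 9.25 and differed by -0.08 in KO and 0.019 in WT.

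Ikzf1 differed by 0.12 ± 0.07 in KO, with 7 of 8 pairs above 0, and by -0.08 ± 0.07 in WT, with 6 of 8 below 0 (adjusted p = 0.554 and 0.575). KO minus WT was 0.20 ± 0.10 (unadjusted p = 0.0586, adjusted p = 0.834), and no gene passed that test, with 1015 at an unadjusted p under 0.05. The KO mean includes 1 pair at 0.57, while the other 7 lay between -0.03 and 0.12.

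Ikzf4 differed by 0.04 ± 0.08 in KO and 0.11 ± 0.08 in WT (adjusted p = 0.877 and 0.468), with 5 of 8 pairs above 0 in each. Ikzf5 differed by -0.07 ± 0.10 in KO and 0.09 ± 0.10 in WT (adjusted p = 0.840 and 0.689), with pairs from -0.42 to 0.25 in KO and from -0.50 to 0.79 in WT. The 95% intervals in WT ran from -0.05 to 0.27 for Ikzf4 and from -0.12 to 0.30 for Ikzf5. Foxp3, at background here, differed by -0.06 ± 0.09 in KO and -0.13 ± 0.09 in WT, which says nothing about its RNA.

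**Figure D5:**
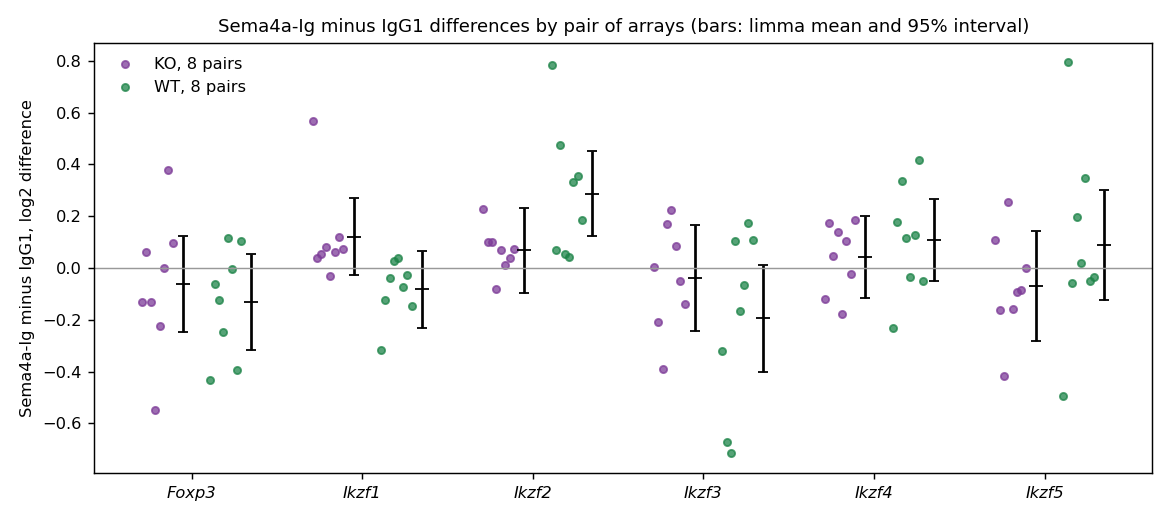
Sema4a-Ig minus IgG1 log2 difference of each pair of arrays (points) for the 6 members in KO and WT Treg, with limma means and 95% intervals (bars). The 8 WT pairs of Ikzf2 lie between 0.04 and 0.78, and every other member has pairs on both sides of 0.

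In WT with Sema4a-Ig, 3 of 13 measured Foxp3-induced genes were higher (23.1%, against 2.91% of all genes), the ectonucleotidase gene Nt5e (0.53), Fgl2 (0.39) and the cytokine signalling inhibitor gene Socs2 (0.30), with 10 of 13 above 0 and a list median of 0.11 against -0.014 over all genes. In KO 7 of 13 were above 0, with a median of 0.014. For KO minus WT 0 of 13 were above 0, with a median of -0.097 against 0.0019 over all genes, and none passed the test. Of 12 measured Foxp3-repressed genes Id3 was higher (0.35) and Ifng, the interferon gamma gene, lower (-0.85). Each is 8.33% of the list, against 2.91% of all genes called higher and 2.88% called lower. Of the 25 factors at the Foxp3 locus 3 were lower (12%, against 2.88% of all genes), Nr4a2 (-0.51), Nr4a3 (-0.41) and Bach2 (-0.29). None of 17 measured corepressor genes and none of the 3 Foxp paralogues was called. In KO and in KO minus WT no gene of any of these lists was called. With the mean myeloid marker difference as a covariate, 19 of all genes were called higher and 0 lower in WT. The lower calls of Ifng, Nr4a2, Nr4a3 and Bach2, and that of Nkg7 above, therefore did not hold in that fit.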

How the data were processed

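RNA of mouse CD4 T cells was measured on 8 arrays of one Affymetrix type (sorted T cells) and 32 of another (ligand experiment). The deposited values are log2 signals per probe set, made with RMA and Partek 6.6 per the submitters' processing notes. No other step is given in the sources at hand. In the ligand table, the mean of each pair of arrays was equal across 16 pairs within 6e-05 at 45141 probe sets, so the authors' values had lost all differences between pairs. Pairs were taken from neighbouring array codes in the titles.

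Of 45101 and 45141 probe sets, 35890 and 29449 were listed with a gene (932 and 551 with several, left out). Symbols were updated through the RefSeq table of GRCm38.p6. The highest-mean probe set stood for a gene. The fits used limma 3.58.1 in R 4.3.3, two-sided, with Benjamini-Hochberg adjustment over all genes and a threshold of 0.05: 1 fit of 3 group means (5 residual degrees of freedom) and 1 fit of 16 pair differences with a mean per genotype (14). They were tested on simulated data. Array intensities before normalization were not used here, and array number limits precision.

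The members and gene lists were chosen with earlier results of these data known. The text names the members and, per member, the 3 genes of most like pattern. Called genes of the lists are named by size of change (at most 4). For some lists and comparisons they are given as counts alone or left out. Alternatives left out arrays or pairs, changed moderation, normalization, filter, probe sets, RNA quality and myeloid covariates, and array weights.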

Additional observations from a re-analysis of the deposited data

Results flagged for a closer look

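Among 12 sets of 8 pair differences (6 members in 2 genotypes), 1 held a pair far from the others. For Ikzf1 in KO, replicate 1 had a Sema4a-Ig minus IgG1 difference of 0.569, and its gap to the next pair was 0.747 of the whole range, over the Dixon value of 0.526. Chance gives such a gap in about 1 of 20 sets.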

How the results depend on the processing

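Of 603 alternative values for single members, 541 kept direction and side of the threshold, 33 lost a call, 5 gained one and 24 changed sign. The Foxp3, Ikzf2 and Ikzf4 calls against Tconv held in every fit of 1 probe set a gene. The cause of each change below was not tested. Genes called numbered 1008 for resting Treg against Tconv (242 to 871 with an array left out, 1633 with RNA quality as a block, 3005 with array weights). They numbered 135 for activated against resting Treg (12 to 168, 216 after quantile normalization, 317, 946, 81 over all probe sets, and 24 in the low Actb class, added after seeing the data), and 1765 for activated Treg against Tconv (433 to 2263, 5889 with array weights, 871 in the low class). Members called for activated against resting Treg numbered 1, but 0 after quantile normalization or in the low class and 0 to 1 with an array left out.

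For Sema4a-Ig in WT, 990 genes were called (258 to 1069 with a pair left out, 608 with trend and robust moderation, 1654 of the brighter genes alone, 1557 over all probe sets, 19 with the myeloid covariate). Members called numbered 1, but 0 with trend and robust moderation or the myeloid covariate and 0 to 1 with a pair left out. With no replicate block, which counts paired arrays as independent, 1734 genes were called in KO, 4417 in WT and 530 for KO minus WT, against 0, 990 and 0, and 2 members in WT, with Ikzf3 added.

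Sign changes were all in differences that were not called, save for Ikzf2 in WT. For activated against resting Treg, Ikzf1 was 0.16 in the low class, 0.17 by its other probe set and -0.37 to 0.034 with an array left out, and other probe sets gave -0.61 for Ikzf2, 0.031 and 0.33 for Ikzf4 and 0.51 for Ikzf5. In KO, other probe sets gave -0.072 for Ikzf1, -0.17 for Ikzf2 and 0.10 for Ikzf3, and leaving out pairs gave -0.13 to 0.0068 for Foxp3 and -0.076 to 0.012 for Ikzf3. In WT, they gave -0.19 for Ikzf2, 0.11 and (unlisted) 0.019 for Ikzf3 and -0.12 for Ikzf5, which was -0.011 to 0.17 with a pair left out. For KO minus WT, Foxp3 was -0.019 with the myeloid covariate, and other probe sets gave -0.021 for Ikzf1, 0.025 for Ikzf2, -0.013 and (unlisted) -0.10 for Ikzf3 and 0.12 for Ikzf5.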
